A study of Mus musculus with 7 samples.

Results

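The genes described here are 49 members of Wnt and R-spondin signalling, fixed by name and split by role into 19 Wnt ligands, 12 receptors and co-receptors, 10 antagonists (counting the Dkk partner *Kremen1*), 4 R-spondins and 4 response genes. Their RNA was measured in the posterior second heart field (pSHF), the splanchnic mesoderm behind the heart tube that supplies the atrial septum. All 49 had at least 1 probe on a single-colour Agilent mouse array, and 42 were bright enough to be tested, out of 14894 genes tested on the array. Tissue came from embryos at E9.5, of parents carrying 1 null *Shh* allele, on a mixed C56B/6 and CD-1 background. *Shh* mutant (Shh-/-) embryos gave 4 pools and wild-type (Shh+/+) embryos gave 3. The number of embryos in a pool is not given in the sources used here. The mutation was constitutive rather than limited to a cell type, and the dissected piece held the attached foregut and the surrounding ventral lateral plate mesenchyme beside the pSHF, so the arrays read a mixture of cell types. In such bulk tissue, fewer cells of a type and less RNA per cell cannot be told apart.

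Wnt proteins are secreted ligands that bind Frizzled receptors, and in the canonical branch also the co-receptors Lrp5 or Lrp6, which lets beta-catenin accumulate and act with Tcf and Lef factors in the nucleus. R-spondins bind the Lgr receptors and remove the ligases Znrf3 and Rnf43 from the membrane, which leaves more Frizzled at the surface. Sfrp proteins, Frzb and Wif1 bind Wnts outside the cell, while Dkk1 blocks Lrp5 and Lrp6. In the early foregut region, canonical Wnt signalling from the mesoderm is known for its part in specifying the lung, and the pSHF mesenchyme also receives Hedgehog ligand from the foregut.

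The targeted gene was lower in each of the 4 libraries labelled mutant than in each of the 3 labelled wild type, with a change of −1.11 on the log2 scale (limma, adjusted p = 0.0579). *Hhip*, a direct Hedgehog target, changed by −2.67 (adjusted p = 0.000378). *Gli1* changed by −0.94 (limma adjusted p = 0.0818) and *Ptch1* by −0.99 (adjusted p = 0.110). Both were lower in every mutant pool, and like *Shh* both missed an adjusted p under 0.05. Between 59.8% and 70.6% of the probes stood well above background on an array, and no array had a saturated spot among those used. The pools of replicate numbers 1, 3 and 4 shared a slide between genotypes, whereas mutant pool 2 had a slide to itself and its array may have leaked according to the labels. The mutant RNA always lay in the first position of the slide and the wild-type RNA in the second, so position and genotype cannot be told apart.

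All levels below are normalized log2 signals of the brightest tested probe of a gene, and all changes are mutant minus wild type on that log2 scale. A gene was called where limma's Benjamini-Hochberg adjusted p over 23127 probes was under 0.05. By that rule 0.759% of all genes tested were called, and 1 of the 42 tested members was called, *Rspo2*. At an unadjusted p under 0.05, 5 members were lower in the mutant (11.9%, against 4.01% of all genes tested) and 2 were higher (4.76%, against 4.55%). The median change of the 42 members was −0.08, against 0.00 for all genes tested, with 25 members below 0 and 17 above. Of these 42, 40 stood well above background on every array with a value, while *Wnt16* and *Sfrp4* passed through 1 genotype alone. Over those 40 members, 4 were lower at an unadjusted p under 0.05 (10%) and 2 were higher (5%), against 3.55% and 4.64% of the 14047 genes above background in the same way. The 5 lower members thus count *Wnt16*, which entered the test only through the genotype where it was high.

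**Figure D1:**
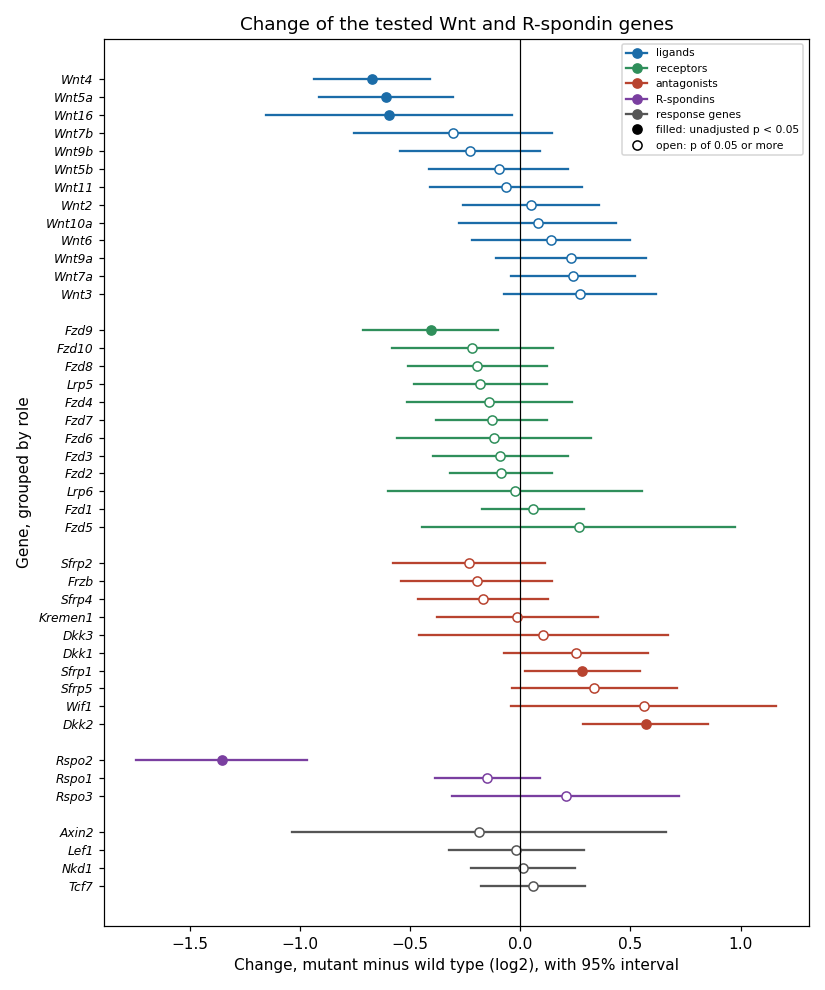
Change of each tested member on the log2 scale (x axis, mutant minus wild type) with its 95% interval from limma, grouped by role on the y axis and ordered by change; filled points had an unadjusted p under 0.05. *Rspo2* lies apart from the other R-spondins, at −1.36, and 10 of the 12 receptors lie left of 0.

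Among the R-spondins, *Rspo2* fell and the other tested members did not pass the test. *Rspo2* encodes a secreted activator of Wnt receptors known for its roles in limb and lung development. Its probe, at chr15:42852727-42852786 on the minus strand of mm9, read 9.06, 9.21, 8.93 and 9.09 in mutant pools 1 to 4. The same probe gave 10.85, 10.11 and 10.34 in wild-type pools 1, 3 and 4. No mutant pool reached the lowest wild-type pool, and the mutant pools lay closer together (SD 0.11, n = 4) than the wild-type pools (SD 0.38, n = 3). The change was −1.36 (SE 0.17, 95% interval −1.74 to −0.97, limma adjusted p = 0.0176), which left 39.0% of the wild-type level. Within the 3 shared slides the mutant pool was lower by −1.79, −1.17 and −1.25. With the slide as a replicate block, a fit that leaves out mutant pool 2, the change was −1.40 and the call was lost (limma adjusted p = 0.0576). The call was also lost without mutant pool 3 (adjusted p = 0.0784) or without wild-type pool 4 (adjusted p = 0.0711), with changes of −1.31 and −1.40. A second *Rspo2* probe was not well above background on any array.

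*Rspo1* read 14.58, 14.66, 14.47 and 14.74 in the mutant pools and 14.84, 14.70 and 14.75 in the wild-type pools. The ranges overlapped through mutant pool 4, and the change was −0.15 (95% interval −0.39 to 0.09, adjusted p = 1.00). *Rspo3*, a further secreted member of the family, read 6.25, 5.95, 5.51 and 5.23 in the mutant pools and 5.61, 5.34 and 5.64 in the wild-type pools. Mutant pools lay on both sides of the wild-type range, with a change of 0.21 (95% interval −0.31 to 0.72, adjusted p = 1.00). *Rspo4* stood well above background on 3 of 4 mutant and 2 of 3 wild-type arrays and was not tested. Of the 5 Lgr receptors and ligases that R-spondins act through, none was called. *Lgr5* differed by 0.59 (limma adjusted p = 0.411) and *Lgr6* by −0.46 (adjusted p = 0.381), both at an unadjusted p under 0.05, and the others lay between −0.14 and 0.15. *Lgr6* was well above background on 1 of 4 mutant arrays and on all 3 wild-type arrays.

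**Figure D2:**
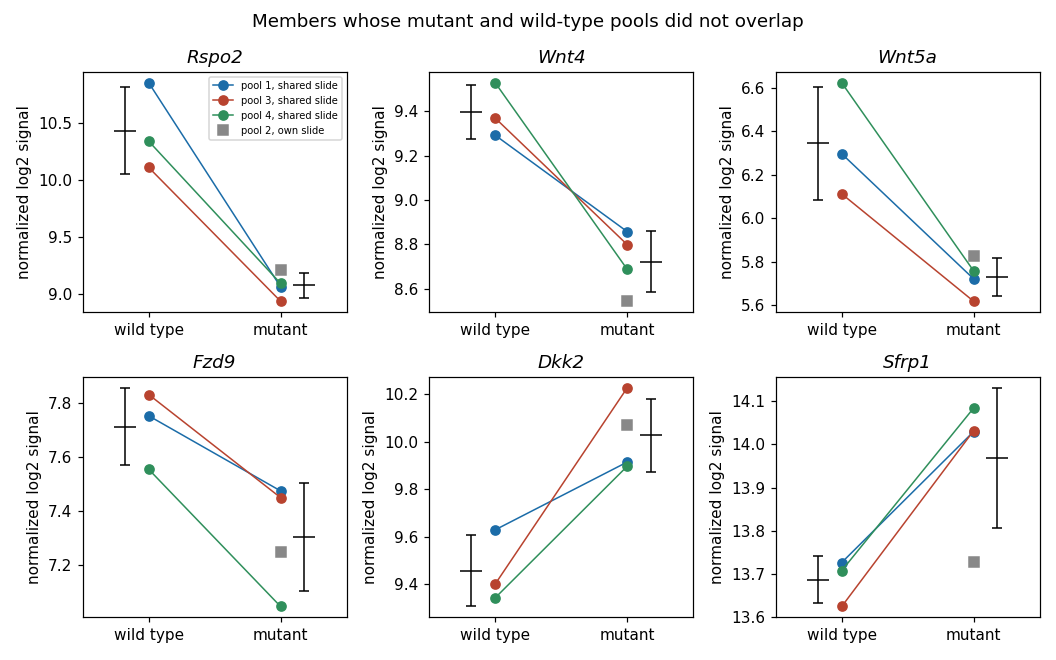
Normalized log2 signal (y axis) of the 6 members whose mutant and wild-type pools did not overlap; lines join pools on a shared slide, the grey square is mutant pool 2, and black bars give mean and SD of 3 wild-type or 4 mutant pools. *Rspo2*, *Wnt4*, *Wnt5a* and *Fzd9* lie lower in every mutant pool, *Dkk2* and *Sfrp1* higher, and *Sfrp1* of mutant pool 2 lies at the wild-type range.

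Of the 19 ligands, 13 were tested, with a median change of −0.07; 7 lay below 0 and none was called. At an unadjusted p under 0.05, 3 were lower (*Wnt16* among them), against 4.01% of all genes tested, and 0 were higher. *Wnt4*, a ligand known for its roles in kidney and gonad development, read 8.86, 8.54, 8.80 and 8.69 in the mutant pools and 9.29, 9.37 and 9.53 in the wild-type pools (probe at chr4:136851690-136852258, plus strand, mm9). The groups did not overlap. Its change of −0.67 (SE 0.12, 95% interval −0.94 to −0.41) missed the threshold narrowly with an adjusted p of 0.0502, and 5 of 18 alternative treatments of the data put it below the threshold. On the shared slides the differences were −0.43, −0.57 and −0.84.

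*Wnt5a*, the best-known ligand of the beta-catenin-independent branch, read 5.72, 5.83, 5.62 and 5.76 in the mutant pools and 6.30, 6.11 and 6.62 in the wild-type pools (probe at chr14:29331746-29335708, plus strand, mm9). All mutant pools were lower, by −0.61 (SE 0.13, 95% interval −0.92 to −0.31, adjusted p = 0.113). *Wnt16* was not well above background on any of the 4 mutant arrays and was so on all 3 wild-type arrays. With dim mutant values raised to the lowest signal well above background, the wild-type mean was 1.20-fold the mutant mean. The fitted change was −0.60 (limma adjusted p = 0.612). The measured values overlapped, at 4.14, 4.80, 4.40 and 5.06 against 5.42, 4.75 and 5.43, so that fold is not a lower bound for the pools.

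The other 10 tested ligands changed by between −0.31 (*Wnt7b*) and 0.27 (*Wnt3*). *Wnt2*, a mesodermal ligand of the canonical branch that takes part in lung specification, read 15.05, 14.66, 14.77 and 14.94 in the mutant pools and 14.97, 14.86 and 14.59 in the wild-type pools, which overlapped over most of their range. Its change was 0.05 (95% interval −0.26 to 0.36). Its relative *Wnt2b* stood well above background on 1 of 4 mutant and 2 of 3 wild-type arrays, as did *Wnt1*, and neither was tested. *Wnt3a*, *Wnt8a*, *Wnt8b* and *Wnt10b* were too dim on all 7 arrays.

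All 12 receptors were tested. Of these, 10 lay below 0 and 2 above, the median change was −0.13, and none was called by limma, with 1 lower at an unadjusted p under 0.05, against 4.01% of all genes tested. That gene, *Fzd9*, a Frizzled receptor, read 7.48, 7.25, 7.45 and 7.05 in the mutant pools and 7.75, 7.83 and 7.55 in the wild-type pools (probe at chr5:135724815-135724874, minus strand, mm9). The groups did not overlap, and the change was −0.41 (SE 0.14, 95% interval −0.71 to −0.10, adjusted p = 0.389). The other Frizzled genes and the co-receptors *Lrp5* and *Lrp6* changed by between −0.22 (*Fzd10*) and 0.27 (*Fzd5*). Different probes of a gene gave opposite signs for *Fzd5*, *Fzd8*, *Fzd10*, *Lrp6* and *Lef1*, 5 of the 15 members with more than 1 tested probe, so the small changes of these receptors have no settled sign.

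All 10 antagonists were tested as well, and their median change was 0.18, with 6 above 0, 4 below and none called by limma. At an unadjusted p under 0.05, 2 were higher, against 4.55% of all genes tested, and 0 were lower. *Dkk2*, a secreted ligand of Lrp5 and Lrp6, read 9.91, 10.07, 10.23 and 9.90 in the mutant pools and 9.63, 9.40 and 9.34 in the wild-type pools (probe at chr3:131842357-131842416, plus strand, mm9). Every mutant pool was higher, by 0.57 (SE 0.12, 95% interval 0.29 to 0.85, adjusted p = 0.113), or 148.3% of the wild-type level. On the shared slides the differences were 0.28, 0.82 and 0.55.

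*Sfrp1*, a secreted Wnt-binding protein, read 14.03, 13.73, 14.03 and 14.08 in the mutant pools and 13.73, 13.62 and 13.71 in the wild-type pools. Mutant pool 2 lay level with the highest wild-type pool to the second decimal, and the other 3 mutant pools stood clear of it. The change was 0.28 (SE 0.12, 95% interval 0.02 to 0.54, adjusted p = 0.612), and a second probe gave 0.33 (adjusted p = 0.350). The other antagonists changed by between −0.23 (*Sfrp2*) and 0.56 (*Wif1*), and the interval of *Wif1*, which also binds Wnts outside the cell, ran from −0.04 to 1.16.

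The groups did not overlap for 4 members that were lower in the mutant (9.76% of the 41 members with a value on all 7 arrays, against 3.82% of all such genes) and 2 that were higher (4.88%, against 4.71%).

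The promoter windows of 3 of these members are shown because they are the non-overlapping members with an entry in the RefSeq promoter table used here, which matched 33 of the 49 symbols. *Rspo2*, *Wnt5a* and *Sfrp1* were not matched. Each line holds the 250 bases before the annotated start, 5′ to 3′ on the gene's strand, from RefSeq on GRCm38.p6. The lines cover chr5:135251048-135251297 (minus strand) for *Fzd9*, chr4:137277385-137277634 (plus strand) for *Wnt4* and chr3:132085042-132085291 (plus strand) for *Dkk2*. Capitals mark GACCAC, the first 6 letters of the Gli core GACCACCCA, on either strand.
Fzd9: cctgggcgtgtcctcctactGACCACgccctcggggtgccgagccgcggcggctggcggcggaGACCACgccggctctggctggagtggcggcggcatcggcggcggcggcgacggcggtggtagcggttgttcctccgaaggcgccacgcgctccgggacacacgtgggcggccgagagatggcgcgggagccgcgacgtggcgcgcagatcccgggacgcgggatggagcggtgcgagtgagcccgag
Wnt4: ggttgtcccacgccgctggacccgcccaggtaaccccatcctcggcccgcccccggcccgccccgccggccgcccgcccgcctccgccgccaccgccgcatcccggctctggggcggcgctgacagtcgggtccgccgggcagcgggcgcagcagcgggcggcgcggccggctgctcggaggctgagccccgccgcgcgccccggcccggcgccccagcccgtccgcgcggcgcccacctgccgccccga
Dkk2: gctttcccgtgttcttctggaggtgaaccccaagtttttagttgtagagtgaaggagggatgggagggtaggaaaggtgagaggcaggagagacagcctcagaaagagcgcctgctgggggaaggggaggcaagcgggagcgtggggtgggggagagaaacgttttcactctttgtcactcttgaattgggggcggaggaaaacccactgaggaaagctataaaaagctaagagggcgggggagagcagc
The full Gli core GACCACCCA, searched on both strands of windows of 300 bases (50 of them after the start), was in none of the 33 matched members and in 0.253% of all 32851 windows. The TCF/LEF core CTTTGAT was in 3.73% of all windows, and among matched members in those of *Wnt5b* and *Wnt11*. The shorter GACCAC, chosen after the full core was searched and contained within it, was in 11.6% of all windows and, among the 33 members, in those of *Fzd9*, *Dkk1* and *Wnt10b*. The *Fzd9* window above holds it at 2 places, and the *Wnt4* and *Dkk2* windows do not hold it. *Wnt4* had a G and C content of 85.2% in this stretch, *Fzd9* 76.4% and *Dkk2* 55.6%. These matches describe letters in the windows alone.

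The 4 response genes, which canonical Wnt signalling raises in many tissues, had a median change of −0.00, and none was called by limma or had an unadjusted p under 0.05. *Nkd1*, an inhibitor induced by the pathway, read 13.39, 13.47, 13.53 and 13.67 in the mutant pools and 13.53, 13.45 and 13.54 in the wild-type pools. The wild-type values lay within the mutant range, and the interval of its change (0.01) ran from −0.23 to 0.25. *Lef1*, a nuclear partner of beta-catenin, read 11.30, 11.18, 11.44 and 11.69 in the mutant pools and 11.51, 11.34 and 11.40 in the wild-type pools, and its change of −0.02 had an interval of −0.32 to 0.29.

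*Tcf7*, another nuclear partner, read 9.55, 9.58, 9.48 and 9.61 in the mutant pools and 9.35, 9.62 and 9.52 in the wild-type pools. The mutant values lay inside the wild-type range, with a change of 0.06 and an interval of −0.18 to 0.29. *Axin2*, the most widely used readout of canonical signalling, read 6.95, 5.99 and 7.66 in mutant pools 1 to 3 and 6.83, 7.12 and 7.21 in the wild-type pools. Its spot on the array of mutant pool 4 was an outlier in the scanner software's own terms and was dropped. The mutant pools spread above and below the wild-type range, and the interval of the change (−0.19) ran from −1.04 to 0.66, which takes in a difference of −1. The sign of *Nkd1*, *Lef1*, *Tcf7* and *Axin2* differed between alternative treatments of the data.

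**Figure D3:**
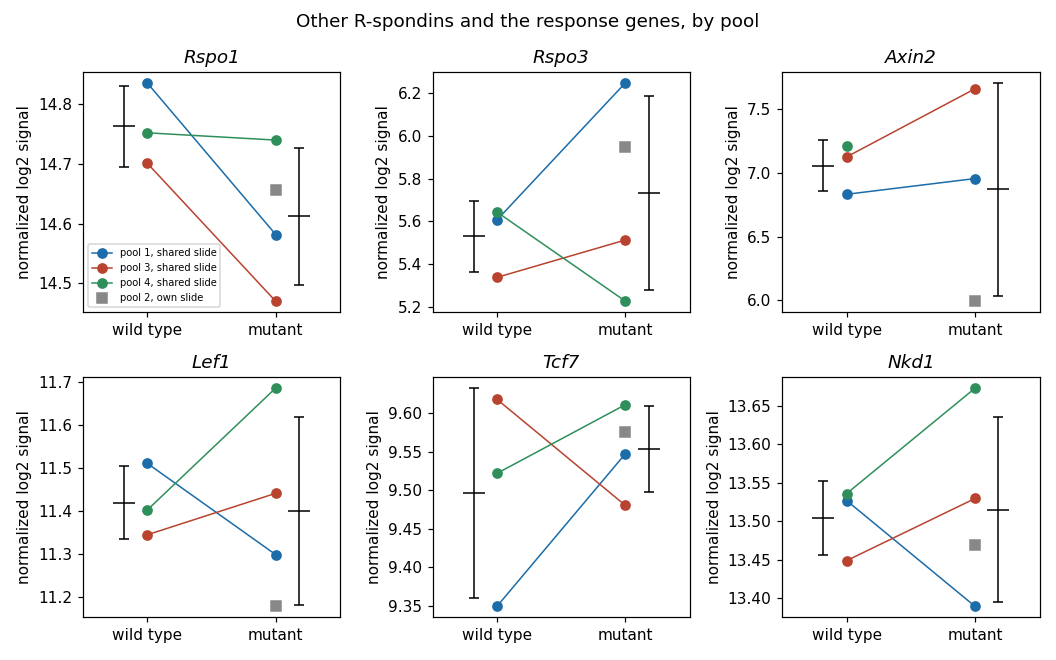
Normalized log2 signal (y axis) of *Rspo1*, *Rspo3* and the 4 response genes in wild-type and mutant pools; lines join pools on a shared slide, the grey square is mutant pool 2, and black bars give mean and SD. Mutant and wild-type pools overlap in each panel, and *Axin2* of mutant pool 4 has no value.

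Of 55 further pathway genes (R-spondin receptors and ligases, ligand release, co-receptors and planar polarity, intracellular transduction, further antagonists and further response genes), 51 were tested and 0 were called by limma. At an unadjusted p under 0.05, 7 were lower and 4 were higher (13.7% and 7.84% of the 51, against 4.01% and 4.55% of all genes tested); the 7 count *Lgr6*, which passed the filter through wild type alone. The lower ones beside *Lgr6* were the Lrp-binding antagonist *Sostdc1* (−0.72, adjusted p = 0.249), the beta-catenin cofactor *Bcl9l* (−0.63, adjusted p = 0.326), *Dkkl1* (−0.45, adjusted p = 0.178), *Nkd2* (−0.40, adjusted p = 0.624), and the response genes *Sp5* (−0.37, adjusted p = 0.520) and *Tnfrsf19* (−0.32, adjusted p = 0.367). The higher ones beside *Lgr5* were *Shisa3*, which holds Frizzled inside the cell (1.15, adjusted p = 0.232), *Daam2* (0.52, adjusted p = 0.426) and *Bambi* (0.35, adjusted p = 0.347). The 20 tested genes of intracellular transduction, from Dvl proteins to beta-catenin, held 1 lower and 1 higher gene at that p, *Bcl9l* and *Daam2*.

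Some marker lists of cell types moved with genotype, and their part in the changes above was not tested. Per the paper, heart, neural tube and dorsal lateral plate mesenchyme were left out of the dissected piece. Cardiomyocyte genes still summed on the linear scale to 210712 to 307795 in the mutant pools and 181751 to 270086 in the wild-type pools. All 8 second heart field mesoderm genes were tested, and 6 were lower, with a median change of −0.41 over the 8. Their summed linear signal ran from 20520 to 23843 in the mutant pools and from 30215 to 37066 in the wild-type pools. At an unadjusted limma p under 0.05, 4 of the 8 were lower, against 4.01% of all genes tested, and 0 were called. For the liver bud, 9 of 9 genes were higher, with a median change of 0.78 and sums of 155397 to 193463 against 139947 to 152092. At an unadjusted limma p under 0.05, 8 of the 9 were higher, against 4.55% of all genes tested, and 1 was called. The 7 foregut endoderm genes summed to 14938 to 18218 against 18554 to 20889, with 6 lower. Their median change was −0.09, with 2 of 7 lower at an unadjusted limma p under 0.05, against 4.01% of all genes tested, and 1 called. The 7 neural crest genes summed to 7083 to 7659 against 7711 to 9601, with 7 lower and a median change of −0.47. Of these 7, 4 were lower at an unadjusted limma p under 0.05, against 4.01% of all genes tested, and 0 were called. Sums overlapped between genotypes for the lists of neural tube (7 of 12 genes tested), sclerotome (7 of 7), myotome (3 of 6), surface ectoderm (7 of 8), cardiomyocyte (6 of 6), and endothelium and blood (8 of 8). An overlap of sums, which the brightest genes carry, does not show that such a list stood still. For the same reason, sums that separate do not show that a whole list moved. Against 0.759% of all genes tested, 2 of the 7 genes on the sclerotome list were called lower by limma, *Pax1* (−2.90, adjusted p = 0.0395) and *Pax9* (−2.19, adjusted p = 0.0332). *Pax9* stood well above background on 1 of 4 mutant arrays. Of the 7 surface ectoderm genes, 5 lay below 0, with a median change of −0.23, and *Tfap2c* was called lower (−1.16, limma adjusted p = 0.0140). At an unadjusted p under 0.05, 2 of the 7 were lower (*Tfap2c* among them) and 1 was higher, against 4.01% and 4.55% of all genes tested. *Meox1*, also on the sclerotome list, differed by −1.13 (limma adjusted p = 0.0795). The remaining genes of that list, *Foxc2*, *Uncx*, *Nkx3-2* and *Tbx18*, differed by −0.11, −0.08, 0.16 and 0.43. In bulk tissue that includes the foregut, the name of a list does not show which cells held the RNA. Of the 3 tested genes on the myotome list, *Myog* differed by −1.66 (limma adjusted p = 0.403), *Myf6* by −0.45 and *Actn2* by 0.40. The myotome-defining genes *Myf5* and *Myod1* were too dim on all 7 arrays.

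**Figure D4:**
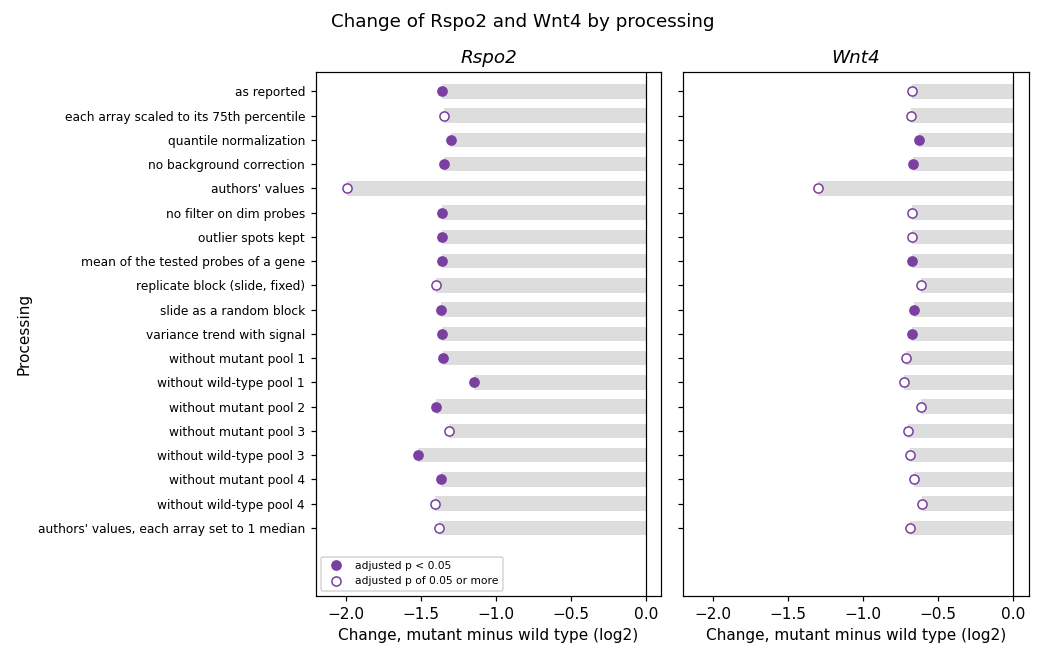
Change of *Rspo2* and *Wnt4* (x axis, log2, bars from 0) under the reported processing and 18 alternatives (y axis); filled points had an adjusted p under 0.05. *Rspo2* stays below 0 throughout, is called under 12 of 18 alternatives and ranges from −1.99 to −1.15, while *Wnt4* is called under 5 of 18 and ranges from −1.30 to −0.61.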

How the data were processed

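RNA from 7 pools of dissected embryonic tissue was labelled with Cy3 and hybridised to 7 arrays, and spots were read with Agilent Feature Extraction 10.5.1.1, per the submitters' processing notes. The deposited scanner files give the mean intensity of each spot as gMeanSignal, which the authors left without normalization in those files. The authors also deposited a table of log2 values after background correction and variance stabilization (VSN), with outlier spots excluded; its scale differed between arrays, with a median of 5.50 for mutant pool 2 against 8.57 to 9.93 for the others, so it served only as an alternative. Probe positions in the files are on mm9.

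Here, intensities were background-corrected with normexp, using the 153 negative control spots of each array (offset 50), and normalized with an in-house implementation of VSN, since the package was not used here. Control and outlier spots were left out, and the values are log2. Tested probes named a gene and passed the scanner's test of signal over background in all pools of 1 genotype or both (23127 probes of 14894 genes), and the brightest tested probe stood for a gene. Array numbers limit the precision. Each limma p-value sets the difference between genotypes against a variance between pools that is moderated over all probes tested. With 1 array per pool, spread between pools and spread between arrays cannot be told apart. The study used SAM with a fold threshold; limma 3.58.1 in R 4.3.3 was used here on all 7 arrays, with no block, and Benjamini-Hochberg adjustment over all probes tested. Fitted differences are log2. The fold given for *Wnt16* compares group means, each mutant value being the higher of the lowest signal well above background and the probe's own. The fit was tested on simulated data. Genes were named in full where their adjusted or unadjusted p was under 0.05 or their change was 1 or more (log2), with all tested R-spondins and response genes. *Wnt2* was added after its values were seen.

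Replicate numbers marked a shared slide in the labels. The correlations of same-slide deviations from group means were 0.19, 0.29 and 0.06, and those of other pairs ran from −0.22 to 0.18. The slide block was an alternative, fitted on the 3 shared slides and so without mutant pool 2. Other alternatives were 75th percentile scaling, quantile normalization, no background correction, no filter, outlier spots kept, and the mean of a gene's probes. Further ones were slide as a random block, a variance trend, the authors' values, and leaving out each pool. The authors' values with arrays set to 1 median were added after seeing the data. The members and lists were chosen with earlier results of these data known.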

Additional observations from a re-analysis of the deposited data

Results flagged for a closer look

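In 4 of the 41 members with a value in all 4 mutant pools, 1 mutant pool stood far from the other 3. The measure was its gap to the nearest pool over the whole range (Dixon's ratio, above its 95% critical value), and chance gives about 1 in 20. The share over all genes tested is not given here, so a trait of the members and a trait of the whole array cannot be told apart. Mutant pool 4 was the highest for *Wnt10a* (7.55 against 7.07 to 7.13, ratio 0.890), *Fzd10* (10.75 against 10.22 to 10.29, ratio 0.868) and *Sfrp2* (11.81 against 11.40 to 11.46, ratio 0.850). Mutant pool 2 was the lowest for *Sfrp1* (13.73 against 14.03 to 14.08, ratio 0.847).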

How the results depend on the processing

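All 18 alternatives kept *Rspo2*, *Wnt4*, *Wnt5a* and *Fzd9* lower in the mutant. *Dkk2* and *Sfrp1* turned sign only in the authors' values (−0.04 and −0.12), where the median of all genes was −0.53; *Rspo1* and *Rspo3*, which were not called, turned sign in 1 alternative each. The number of called members was 0 with 75th percentile scaling (*Rspo2* adjusted p just above 0.05), the authors' values (0.934), the replicate block (0.0576) and the authors' values with arrays set to 1 median (0.188), an alternative chosen after seeing the data; it was 2 (*Rspo2* and *Wnt4*) with quantile normalization, no background correction, the mean of a gene's probes, slide as a random block, and the variance trend. Leaving out 1 pool gave 0 to 1. With slide as a fixed block, which also left out mutant pool 2, the call of *Rspo2* was lost and that of no other member changed. With slide as a random block over all 7 arrays, *Rspo2* stayed called and *Wnt4* was added. Medians moved in the authors' values (members −0.60, ligands −0.68, receptors −0.71, antagonists −0.44, R-spondins −0.37, response genes −0.49). They also moved in those set to 1 median (members 0.011, R-spondins 0.24, response genes 0.11) and without a filter (members −0.037, R-spondins 0.027). Medians moved as well with the mean of probes (members −0.038) and with the replicate block, which leaves out mutant pool 2 (ligands −0.0075). Leaving out 1 pool without a block reached the same ligand median. The causes of these moves were not tested. Without 1 pool, the medians ran from −0.088 to −0.042 for members, −0.22 to −0.0075 for ligands, −0.15 to −0.064 for receptors, 0.12 to 0.21 for antagonists, −0.19 to −0.10 for R-spondins and −0.08 to 0.05 for response genes. Further pathway genes gave 0 calls throughout. Dim probes limit *Wnt16*, *Rspo4* and the 6 untested ligands.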
